A study of Mus musculus with 6 samples.

Results

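The CELF and MBNL families of RNA-binding proteins were followed in the neocortex of mice without HuD. The 9 genes named *Celf1* to *Celf6* and *Mbnl1* to *Mbnl3* were looked up by symbol among the 13299 protein-coding genes of the series, and 8 of them had values. *Mbnl3* was not analysed here. HuD KO mice are *Elavl4*-/- males in which a PGK-Neo cassette stands in place of exon 2 of *Elavl4*, the gene of the neuronal RNA-binding protein HuD, in every cell of the body. Controls are wildtype male littermates, and both genotypes are on a C57BL/6 background and were 3 to 4 months old. Each genotype has 3 libraries of total RNA from whole neocortex, 1 per animal, sequenced as paired ends. The study set HuD KO replicate 2 aside as an outlier, so HuD KO replicates 1 and 3 were compared here with control replicates 1, 2 and 3 (5 libraries), and the members are also given over all 6 libraries.

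CELF proteins carry RNA recognition motifs and bind GU-rich stretches. In the nucleus they switch alternative exons in or out, and in the cytoplasm they direct the decay and translation of mRNAs. MBNL proteins, named after the fly gene muscleblind, bind RNA through pairs of CCCH zinc fingers and act on many of the same exons, often in the opposite direction. In myotonic dystrophy, expanded CUG or CCUG repeat RNA traps MBNL proteins in nuclear foci, and CELF1 protein is raised in the muscle and heart of patients. CELF1 and CELF2 are found in many tissues and form one branch of the family. CELF3, CELF4, CELF5 and CELF6 form the other branch and are found mainly in the nervous system. HuD itself binds AU-rich and U-rich stretches, mostly in the 3′-UTRs of neuronal mRNAs.

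*Celf1*, *Celf2* and *Mbnl2* are on the list of HuD-bound mRNAs that the study used. AU-rich stretches were looked up in the members' 3′-UTRs, taking the longest UTR annotated for each gene in GENCODE M21 (mm10). The pentamer ATTTA was counted on the mRNA strand, with overlapping copies counted separately. The highest count was that of *Celf2*, with 12 copies in 7381 bases. *Celf1* and *Mbnl1* had 10 copies each, in 6132 and 3395 bases, *Mbnl2* had 9 in 2748 bases and *Celf4* had 8 in 2124 bases. *Celf3* had 1 copy in 1075 bases, *Celf5* had 1 in 3099 bases and *Celf6* had 0 in 1341 bases. At least 1 copy was present in 71.3% of the 11540 genes with an annotated 3′-UTR. Per kilobase, *Celf4* (3.77), *Mbnl2* (3.28) and *Mbnl1* (2.95) were above the 75th percentile of those genes, which was 2.63. *Celf1* and *Celf2*, both at 1.63 per kilobase, were near the median of 1.35. The mRNAs on the HuD-bound list were thus found at both positions, and *Celf4*, with the most copies per kilobase, is not on it. The nonamer TTATTTATT, which contains the pentamer, was present in 8.59% of genes and occurred once in *Mbnl2* and once in *Celf3*. Which 3′-UTR isoforms were used in these libraries was not analysed here, and a match is a description of the annotated sequence, not a site of binding.

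The 25-base stretch with the most pentamers is shown, as an example of the AU-rich letters counted, for the members on the HuD-bound list and for *Mbnl1*, the other listed MBNL gene. *Celf3*, *Celf4* and *Celf5* hold the pentamer too and are not shown. The stretches are written 5′ to 3′ on the mRNA strand with each ATTTA in capitals, and positions are in mm10 (the first such stretch is given where several tie).
Mbnl2, chr14:120431219-120431243, + strand: tgctttttATTTATTTAtaatgtaa
Mbnl1, chr3:60628293-60628317, + strand: tgATTTAtattttactgATTTAata
Celf1, chr2:91014581-91014605, + strand: atggATTTAgtgttcATTTAcctca
Celf2, chr2:6546466-6546490, - strand: gaaacatgacATTTAttggtcagat
The copies overlap in *Mbnl2*, stand apart in *Mbnl1* and *Celf1*, and occur singly in *Celf2*, where no stretch of 25 bases held more than 1 copy.

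**Figure D1:**
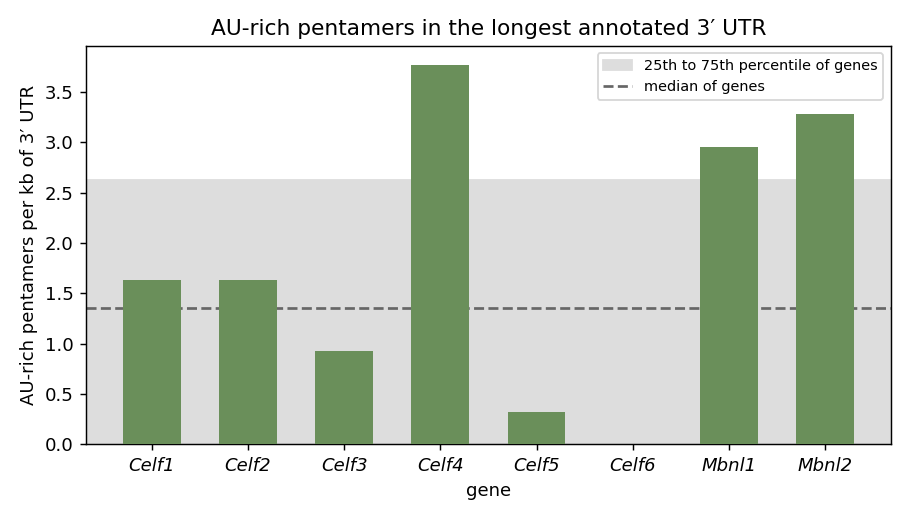
Copies of the AU-rich pentamer per kilobase of the longest annotated 3′-UTR (bars) for the 8 listed members. The grey band spans the 25th to 75th percentile of 11540 genes (0 to 2.63 per kilobase) and the dashed line is their median (1.35). *Celf4*, *Mbnl2* and *Mbnl1* lie above the band, and *Celf6* is at 0.

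Levels are given in FPKM, fragments scaled by transcript length and by the mapped fragments of the library, so that members can be compared with each other. *Elavl4* was at 1.70, 1.07 and 1.52 FPKM in HuD KO replicates 1 to 3, against 34.2, 30.4 and 28.3 FPKM in control replicates 1 to 3, so every library matched its label. In limma, described below, *Elavl4* passed over 5 libraries (adjusted p = 0.000687). *Elavl1*, *Elavl2* and *Elavl3* did not pass (adjusted p = 0.995 for each in limma), with log2 fold changes of 0.10, 0.66 and 0.12. *Elavl2* was at 5.32, 11.1 and 15.9 FPKM in HuD KOs, against 4.76, 5.70 and 6.21 FPKM in controls. Its level in HuD KO replicate 1 lay within the range of the controls.

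HuD KO replicate 2 was the highest or the lowest of the 6 libraries for 64% of genes, against 18.3% to 47.5% for the others, and control replicate 3 had the next largest share. Set against the average of the remaining 5 libraries, mitochondrially encoded mRNAs had a median of -1.73 on the log2 scale in HuD KO replicate 2 (13 of 13 genes listed). Hypothalamic neuropeptides had a median of 4.56 in control replicate 3, with 6 of 6 genes listed and a summed level of 0.949 to 3.50 FPKM in HuD KOs and 1.24 to 279.4 FPKM in controls. In that list *Pmch*, *Hcrt*, *Avp*, *Oxt* and *Agrp* were at 0 in at least 1 library. Choroid plexus markers (4 of 6 genes listed) summed to 160.8, 5.56 and 88.2 FPKM in HuD KO replicates 1 to 3. In control replicates 1 to 3 they summed to 2.44, 2.31 and 296.7 FPKM, and *Kcne2* of that list was at 0 in at least 1 library. Striatal neuron markers (6 of 6 listed) summed to 140.5, 81.1 and 47.4 FPKM in HuD KOs, against 43.9, 45.3 and 115.1 FPKM in controls. Neuron markers were present in every library (8 of 8 genes listed, summed level 1006 to 1098 FPKM in HuD KOs and 883.1 to 1143 FPKM in controls). Meningeal fibroblast markers summed to 15.1 to 20.7 FPKM in HuD KOs and 26.3 to 54.1 FPKM in controls, with 8 of 8 listed, 8 below 0 in log2 fold change and 4 at an unadjusted p under 0.05 in limma (0 passed). Among all genes over 5 libraries, 44.5% were above 0 and 3.43% had an unadjusted p under 0.05 in limma. Endothelial markers were below 0 for 7 of 7, with overlapping sums of 52.9 to 61.3 FPKM in HuD KOs and 54.6 to 69.0 FPKM in controls. Pericyte and smooth muscle markers (7 of 7 listed) summed to 56.4 to 69.5 FPKM in HuD KOs and 73.7 to 83.4 FPKM in controls. Astrocyte markers (8 of 8 listed) summed to 387.8 to 471.2 FPKM in HuD KOs and 475.9 to 528.7 FPKM in controls. Neither of these 2 sums overlapped between genotypes, and 0 genes of either list passed in limma. How common such separation is among sums was not computed. Among all genes 10.1% were separate in FPKM over 6 libraries, 5.7% with HuD KOs lower. Excitatory neuron markers had their highest median in HuD KO replicate 2 (0.37) and their lowest in control replicate 3 (-0.85), and summed to 1634 to 2574 FPKM in HuD KOs and 1028 to 1702 FPKM in controls (10 of 10 listed). Over 5 libraries 8 were above 0 and 2 had an unadjusted p under 0.05 in limma (0 passed). Oligodendrocyte markers summed to 504.9 to 555.1 FPKM in HuD KOs and 417.3 to 524.5 FPKM in controls. Of their 9 genes, 9 were above 0 and 2 had an unadjusted p under 0.05 in limma (0 passed). No gene of the cell type lists given here, other than *Kcne2* and the hypothalamic genes, was at 0 in any library. What part these shifts have in the values of the CELF and MBNL genes was not tested. In whole tissue, fewer cells of a type and less RNA per cell cannot be told apart. The values used are FPKM without counts, so depth is unknown and no detection limit can be given.

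The neuron-enriched branch made up most of the CELF mRNA in cortex. *Celf4*, whose protein binds many neuronal mRNAs and whose loss causes seizures in mice, was the most abundant member, at 55.9, 49.2 and 62.9 FPKM in HuD KO replicates 1 to 3, against 65.8, 57.2 and 68.6 FPKM in control replicates 1 to 3. It was above 95.6% of all genes by its mean over the 6 libraries. *Celf5*, a less studied member of the same branch, was at 39.4, 31.7 and 37.4 FPKM in HuD KOs, against 37.1, 31.7 and 33.6 FPKM in controls. *Celf1*, which acts in mRNA decay as well as in splicing, followed at 26.5, 38.6 and 24.0 FPKM in HuD KOs, against 21.6, 22.2 and 23.5 FPKM in controls. The order *Celf4*, *Celf5*, *Celf1* held in 5 of 6 libraries. In HuD KO replicate 2, *Celf1* exceeded *Celf5*.

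*Celf2* and *Celf3* were next, at nearly the same level. *Celf2*, which regulates splicing in neurons and in the immune system, was at 15.7, 9.13 and 15.5 FPKM in HuD KOs, against 16.8, 14.0 and 15.1 FPKM in controls. *Celf3*, a splicing regulator found mostly in the brain, was at 14.6, 11.2 and 15.0 FPKM in HuD KOs, against 15.4, 12.6 and 15.7 FPKM in controls. The ranges of these neighbours overlapped in both genotypes, and *Celf2* was the higher in 4 of 6 libraries, so they did not differ beyond their spread. *Mbnl2*, the main MBNL protein of the brain, was at 10.9, 14.8 and 8.41 FPKM in HuD KOs, against 8.85, 9.97 and 9.38 FPKM in controls. It lay below *Celf3* in 5 of 6 libraries and above it in HuD KO replicate 2.

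The lowest members were *Celf6* and *Mbnl1*. *Celf6*, whose loss alters vocal behaviour in mouse pups, was at 3.79, 3.24 and 2.76 FPKM in HuD KOs, against 2.19, 3.13 and 7.15 FPKM in controls. *Mbnl1*, the main MBNL protein of muscle, was at 1.75, 0.928 and 2.39 FPKM in HuD KOs, against 2.14, 3.67 and 2.62 FPKM in controls, and was above only 24.3% of genes. *Celf6* exceeded *Mbnl1* in 5 of 6 libraries, and their ranges overlapped in controls. Of the 7 pairs of neighbours in the order of levels, the ranges over 6 libraries were separate for *Celf4* over *Celf5*, *Celf1* over *Celf2* and *Mbnl2* over *Celf6*.

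**Figure D2:**
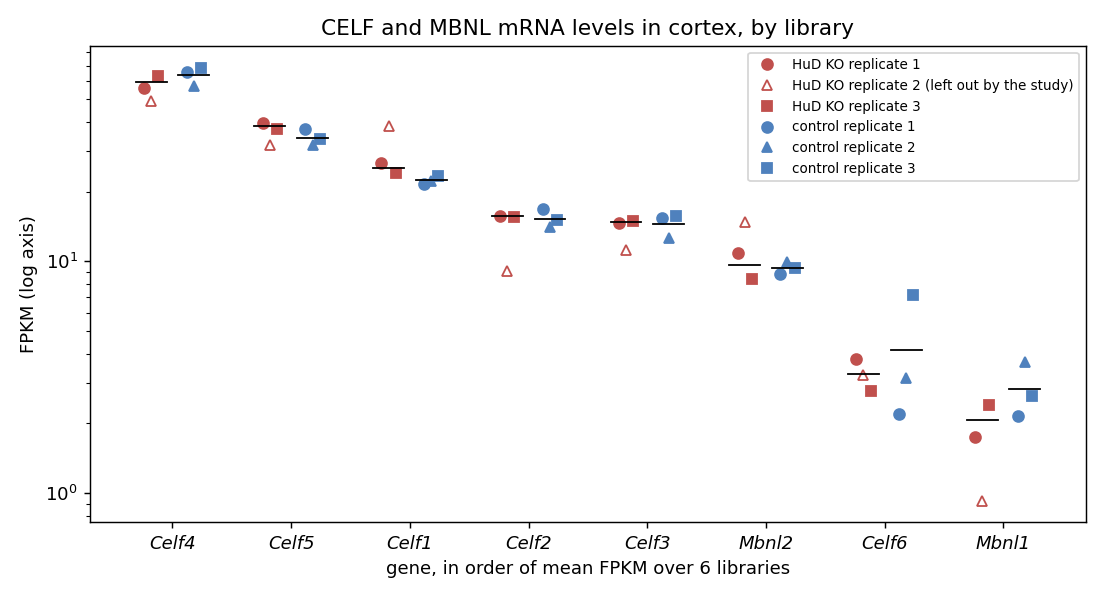
FPKM of each member (log axis) in HuD KO libraries (red) and control libraries (blue). Symbols mark the replicate number, the open triangle is HuD KO replicate 2, and the lines are the means of HuD KO replicates 1 and 3 and of the 3 controls. *Celf4* lies between 49.2 and 68.6 FPKM and *Mbnl1* between 0.928 and 3.67 FPKM.

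No member passed the comparison of HuD KOs with controls. Genes that averaged 0.5 FPKM or more were tested on log2(FPKM + 1) with limma, 13121 in all, and the 8 members were among them. Of these genes 6 passed an adjusted p under 0.05 (0.0457%) and 450 had an unadjusted p under 0.05 (3.43%). Of the 8 members 0 passed in limma and 0 had an unadjusted p under 0.05. Over all 6 libraries 4 of 13114 genes passed (0.0305%) and 457 had an unadjusted p under 0.05 (3.48%), with 0 of 8 members by either rule. The adjusted p in limma was 0.995 for each member over 5 libraries and 0.871 to 0.920 over 6. The log2 fold change is the difference in mean log2(FPKM + 1), positive where HuD KOs were higher, and this scale shrinks differences of low genes such as *Mbnl1*. It was above 0 for 5 of 8 members over 5 libraries, beside 44.5% of all genes, and for 3 of 8 over 6 libraries, beside 47.6%. The median log2 fold change of the 8 members was 0.03 over 5 libraries and -0.13 over 6, beside -0.02 and -0.01 over all genes tested. The median standard error was 0.11 for the members and 0.12 for all genes over 5 libraries.

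*Celf1* was the 1 member whose genotypes did not overlap in either set of libraries. Its mean was 25.2 ± 1.76 FPKM in HuD KOs (SD, n = 2) and 22.4 ± 0.957 FPKM in controls (SD, n = 3), which is 113% of control. With HuD KO replicate 2, the HuD KO mean was 29.7 ± 7.79 FPKM (SD, n = 3), or 132% of control. The log2 fold change was 0.16 (SE 0.08, 95% interval -0.04 to 0.37) over 5 libraries and 0.36 (SE 0.18, -0.05 to 0.78) over 6. The lowest HuD KO library, replicate 3 at 24.0 FPKM, was close to the highest control, replicate 3 at 23.5 FPKM. Separation of this kind was common: the genotypes did not overlap for 19.2% of genes over 5 libraries and for 10.1% over 6. The two-sided exact permutation test gave p = 0.2 over 5 libraries and p = 0.1 over 6, the smallest values these designs allow. Without HuD KO replicate 1 the log2 fold change was 0.10.

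*Celf5* was separate over 5 libraries only. Both HuD KO replicates 1 and 3, at 39.4 and 37.4 FPKM, were above the 3 controls, of which the highest was 37.1 FPKM. HuD KO replicate 2, at 31.7 FPKM, was level with the lowest control. The log2 fold change was 0.17 (SE 0.09, 95% interval -0.06 to 0.39) over 5 libraries and 0.08 (-0.21 to 0.36) over 6. *Celf1* and *Celf5* were the 2 of 8 members without overlap over 5 libraries, and both were higher in HuD KOs. Among all genes 8.2% were separate with HuD KOs higher and 11% with HuD KOs lower over 5 libraries. Over 6 libraries these shares were 4.43% and 5.7%, and *Celf1* was the 1 of 8 members.

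For *Celf2*, *Celf3* and *Celf4* the genotypes overlapped, and each had its lowest level in HuD KO replicate 2. *Celf2* had means of 15.6 ± 0.115 FPKM in HuD KOs (SD, n = 2) and 15.3 ± 1.38 FPKM in controls (SD, n = 3), with a log2 fold change of 0.03 (95% interval -0.21 to 0.27). Over 6 libraries it was -0.21 (-0.69 to 0.28). The log2 fold change of *Celf3* was 0.03 (-0.25 to 0.31) over 5 libraries and -0.10 (-0.44 to 0.25) over 6. In GENCODE M21 the locus of *Celf3* overlaps that of *Riiad1* on the opposite strand, the 1 overlapping gene that also has values here. Other annotated genes overlap *Celf2* (7, of which 3 on the same strand), *Celf4* (3, of which 1 on the same strand), *Mbnl1* (2, both on the same strand), *Celf5* (1) and *Mbnl2* (1, both of these on the opposite strand). The strand setting of the counting is not known here, so how their fragments were divided is uncertain. *Celf4* averaged 59.4 ± 4.92 FPKM in HuD KOs (SD, n = 2) and 63.8 ± 5.94 FPKM in controls (SD, n = 3), a log2 fold change of -0.10 (-0.37 to 0.17), and -0.19 (-0.49 to 0.12) over 6 libraries. It was -0.02 without HuD KO replicate 1, -0.05 without control replicate 3, and -0.18 without either HuD KO replicate 3 or control replicate 2. For these genes and for *Celf1* and *Celf5*, the intervals over 5 libraries lay within 0.4 of 0 on the log2 scale.

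*Celf6* was the least certain of the CELF genes. Its mean was 3.28 ± 0.730 FPKM in HuD KOs (SD, n = 2) and 4.16 ± 2.63 FPKM in controls (SD, n = 3), where control replicate 3 was 3.26 times control replicate 1. The log2 fold change was -0.16 with a 95% interval from -1.16 to 0.83, and without control replicate 3 it was 0.23. Control replicate 3 was also the library with the highest hypothalamic neuropeptides and choroid plexus markers and the lowest excitatory neuron markers. What part these have in the level of *Celf6* was not tested.

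*Mbnl1* had a log2 fold change below 0 in both sets of libraries and did not pass. In size it was the largest of the 8 members in both sets, but *Celf6* was larger without HuD KO replicate 1 or control replicate 1. *Celf6* was also larger without control replicate 2, and the replicate block gave those same log2 fold changes. The mean of *Mbnl1* was 2.07 ± 0.456 FPKM in HuD KOs (SD, n = 2) and 2.81 ± 0.783 FPKM in controls (SD, n = 3), or 74% of control. The log2 fold change was -0.30 (SE 0.20, 95% interval -0.79 to 0.19) over 5 libraries and -0.52 (SE 0.24, -1.08 to 0.04) over 6, with unadjusted p = 0.184 and 0.063 in limma. HuD KO replicate 3, at 2.39 FPKM, lay above control replicate 1, at 2.14 FPKM, so the genotypes overlapped. Without control replicate 2 the log2 fold change was -0.14, and without HuD KO replicate 1 it was -0.15. *Mbnl2* averaged 9.64 ± 1.75 FPKM in HuD KOs (SD, n = 2) and 9.40 ± 0.562 FPKM in controls (SD, n = 3). Its log2 fold change was 0.02 (-0.29 to 0.34) over 5 libraries and 0.22 (-0.22 to 0.66) over 6.

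**Figure D3:**
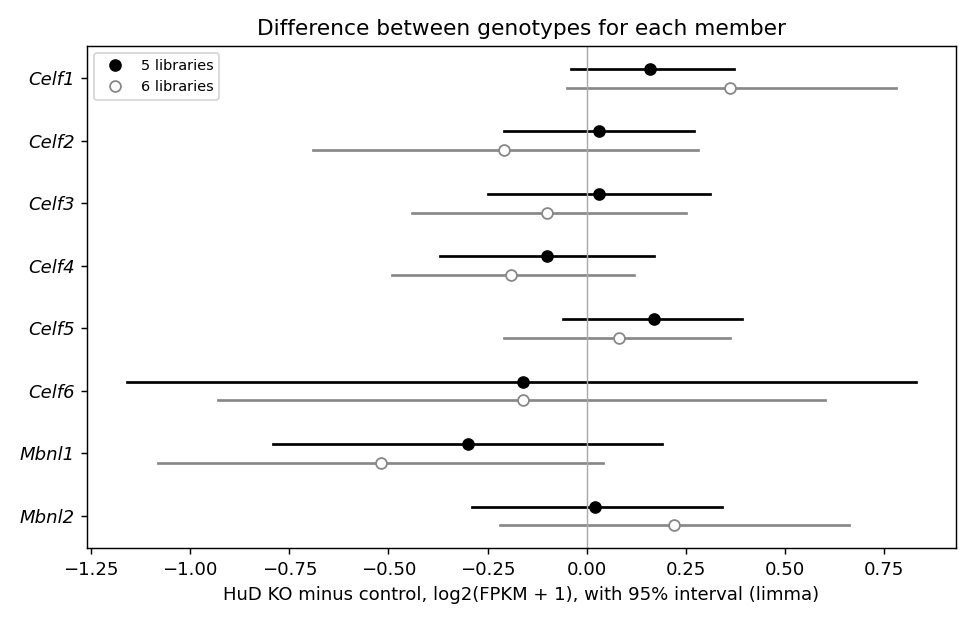
HuD KO minus control on the log2(FPKM + 1) scale for each member, with 95% intervals from limma, over 5 libraries (filled) and over 6 (open, HuD KO replicate 2 included). Every interval includes 0, and those of *Celf6* (-1.16 to 0.83) and *Mbnl1* (-0.79 to 0.19) are the widest over 5 libraries.

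Summed over its 6 members, the CELF family was at 156.0, 143.1 and 157.5 FPKM in HuD KO replicates 1 to 3, against 158.7, 140.8 and 163.5 FPKM in control replicates 1 to 3. The groups overlapped, with means of 156.8 ± 1.11 FPKM in HuD KO replicates 1 and 3 (SD, n = 2) and 154.3 ± 11.99 FPKM in controls (SD, n = 3). The 2 listed MBNL genes summed to 12.6, 15.7 and 10.8 FPKM in HuD KOs, against 10.99, 13.6 and 12 FPKM in controls. CELF mRNA therefore exceeded MBNL mRNA 12.4, 9.12 and 14.6 times in HuD KOs, against 14.4, 10.3 and 13.6 times in controls, again with overlap. The branch of *Celf3* to *Celf6* held 113.8, 95.4 and 118.0 FPKM in HuD KOs, against 120.4, 104.6 and 125.0 FPKM in controls. The branch of *Celf1* and *Celf2* held 42.2, 47.7 and 39.5 FPKM in HuD KOs, against 38.3, 36.2 and 38.5 FPKM in controls, without overlap. The closest values were 39.5 FPKM in HuD KO replicate 3 and 38.5 FPKM in control replicate 3. *Celf1*, which is part of this sum, was separate alone too. Among all genes 10.1% were separate in FPKM over 6 libraries, 4.43% with HuD KOs higher. How common such separation is among sums was not computed. These sums were taken over members chosen with results of these data known, so they are given without a test.

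The shares of the members in their families are given without a test too. *Celf4* made up 35.9%, 34.4% and 39.9% of CELF FPKM in HuD KOs, against 41.4%, 40.6% and 41.9% in controls, so every HuD KO was below every control. The FPKM of *Celf4* itself overlapped between genotypes. How common such separation is among shares was not computed, but 10.1% of all genes were separate in FPKM over 6 libraries. *Celf5* made up 25.3% and 23.7% in HuD KO replicates 1 and 3, both above the controls at 23.4%, 22.5% and 20.5%, while HuD KO replicate 2, at 22.2%, was within their range. *Celf1* made up 17.0%, 26.95% and 15.2% in HuD KO replicates 1 to 3, against 13.6%, 15.7% and 14.3% in controls, with overlap. *Celf6* made up 2.43%, 2.27% and 1.75% in HuD KOs, against 1.38%, 2.23% and 4.37% in controls, where the spread was widest. The shares of *Celf2* and *Celf3* overlapped between genotypes, at 6.38% to 10.07% and 7.80% to 9.495% in HuD KOs and 9.22% to 10.55% and 8.93% to 9.67% in controls. *Mbnl2* made up 86.1%, 94.08% and 77.8% of MBNL FPKM in HuD KO replicates 1 to 3, against 80.5%, 73.1% and 78.2% in controls, with overlap.

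**Figure D4:**
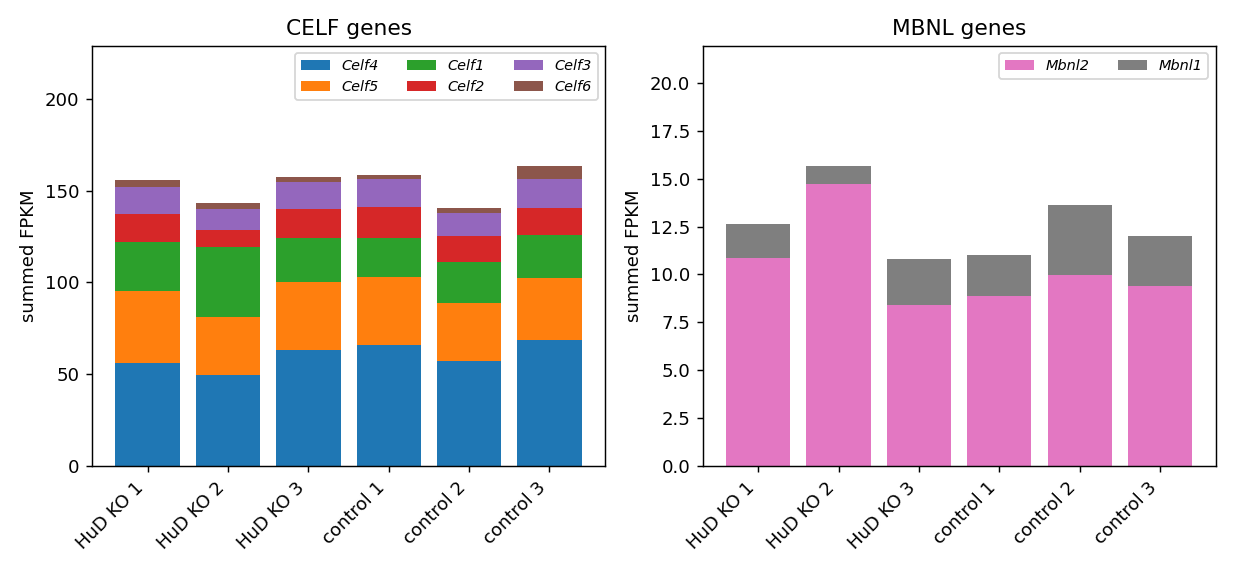
Stacked FPKM of the CELF genes (left) and the MBNL genes (right) in each library, HuD KO libraries first. The CELF stacks reach 140.8 to 163.5 FPKM and the MBNL stacks 10.8 to 15.7 FPKM, and in HuD KO replicate 2 the *Celf1* and *Mbnl2* parts are the tallest of the 6 libraries.

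HuD KO replicate 2 differed from the other libraries in the balance within each family. It was the highest or the lowest library for 7 of the 8 members, against 64% of all genes, with *Celf6* as the exception. Set against the average of the remaining 5 libraries, *Celf1* was at 0.69 and *Mbnl2* at 0.59 on the log2 scale, while *Celf2* was at -0.69 and *Mbnl1* at -0.84. Of all genes, 95.5% had a smaller deviation than *Mbnl1*, the largest of the 8 members, and for *Celf1* and *Celf2* the share was 91.8%. It was 86.8% for *Mbnl2*, 66.4% for *Celf3*, 61.6% for *Celf4*, 34.9% for *Celf5* and 21.4% for *Celf6*. The ratio of *Celf1* to *Celf2* FPKM was 4.22 in that library, against 1.69 and 1.54 in the other HuD KOs and 1.29, 1.58 and 1.56 in controls. The ratio of *Mbnl2* to *Mbnl1* was 15.9 there, against 6.22 and 3.51 in the other HuD KOs and 4.13, 2.71 and 3.58 in controls. These ratios were chosen after the values were seen. The same library was low in mitochondrially encoded mRNAs, and what part this has in the ratios was not tested.

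**Figure D5:**
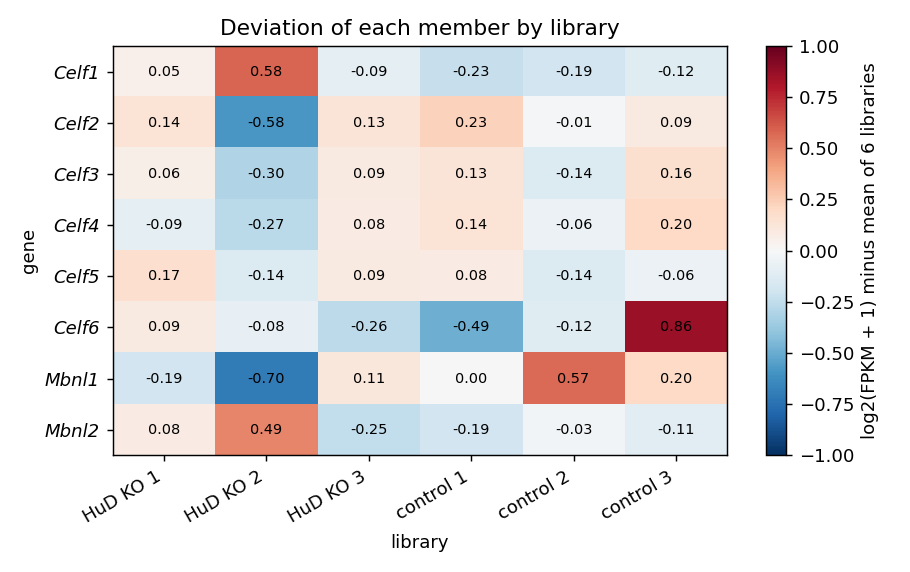
Deviation of each member from its own mean over 6 libraries, in log2(FPKM + 1), with HuD KO libraries on the left. HuD KO replicate 2 has the highest *Celf1* (0.58) and *Mbnl2* (0.49) and the lowest *Celf2* (-0.58) and *Mbnl1* (-0.70), and control replicate 3 has the highest *Celf6* (0.86).

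Genes on which CELF or MBNL proteins are known to act, by splicing or by mRNA decay, were read at the level of the whole gene. Of 39 such genes 34 were listed and tested, and 0 passed in limma in either direction or had an unadjusted p under 0.05 over 5 libraries. Their log2 fold changes were above 0 for 13 of 34, beside 44.5% of all genes, and below 0 for 21, with a median of -0.03, beside -0.02 over all genes. Over 6 libraries 0 passed, 1 of 34 had an unadjusted p under 0.05, beside 3.48% of all genes, and the median was 0.00. *Jun*, whose mRNA is a decay target of CELF1 in human cells, was that gene, at 12.9, 13.4 and 10.8 FPKM in HuD KOs, against 17.1, 15.1 and 29.2 FPKM in controls. The genotypes did not overlap, and the log2 fold change was -0.69 over 5 libraries (unadjusted p = 0.0507, adjusted p = 0.995 in limma) and -0.63 over 6 (unadjusted p = 0.0308, adjusted p = 0.871 in limma). Without control replicate 3, the highest library, it was -0.42. *Nf1*, the neurofibromin gene, has an exon that both Hu and CELF proteins regulate, and it was at 6.95, 5.22 and 6.22 FPKM in HuD KOs, against 7.54, 7.08 and 8.30 FPKM in controls. Every HuD KO library was below every control for *Nf1*, with a log2 fold change of -0.19 (95% interval -0.44 to 0.07) over 5 libraries, -0.28 over 6 and -0.12 without HuD KO replicate 3. Among all genes 10.1% had separate genotypes over 6 libraries, 5.7% with HuD KOs lower. The targets named here were those with the smallest unadjusted p, a choice that favours separation.

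*Camk2d*, a calcium/calmodulin kinase gene with exons regulated by MBNL proteins, was at 2.23, 2.20 and 2.29 FPKM in HuD KOs, against 5.21, 2.15 and 5.20 FPKM in controls, where replicate 2 stood with the HuD KOs. *Foxp1*, a transcription factor gene with an exon regulated by MBNL proteins, was at 3.97, 1.95 and 2.66 FPKM in HuD KOs, against 10.3, 2.89 and 6.62 FPKM in controls. Both had control libraries that differed more than 2-fold among themselves, and their log2 fold changes were -0.60 (-1.40 to 0.19) and -0.70 (-1.82 to 0.41). Without control replicate 2 these were -0.93 and -1.12, and without control replicate 1 they were -0.44 and -0.35. The myosin phosphatase gene *Ppp1r12a* had 0.17 (-0.01 to 0.34) over 5 libraries and 0.01 over 6, since HuD KO replicate 2, at 15.4 FPKM, was below every control. The fibronectin gene *Fn1* had -0.26 (-0.59 to 0.08) over 5 libraries and -0.24 over 6. Beside these values, meningeal fibroblast markers, cells in which *Fn1* is abundant, had sums without overlap between genotypes, lower in HuD KOs, and their part in the target values was not tested. Since FPKM is summed over isoforms, none of these values bears on whether an exon was included.

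The genes at the repeats of myotonic dystrophy were also measured, 4 of 4 listed and 0 passing in limma. *Dmpk*, which carries the CTG repeat in patients, was at 1.61, 2.26 and 1.42 FPKM in HuD KOs, against 1.23, 1.43 and 2.34 FPKM in controls. *Cnbp*, which carries the CCTG repeat, was at 55.1, 70.3 and 60.3 FPKM in HuD KOs, against 57.4, 59.2 and 50.05 FPKM in controls. Their log2 fold changes were -0.06 (95% interval -0.54 to 0.41) and 0.06 (-0.19 to 0.31). *Dmwd* and *Six5*, the neighbours of *Dmpk*, had 0.13 (-0.08 to 0.34) and 0.00 (-0.35 to 0.35). *Dmwd* was at 34.1, 53.9 and 35.5 FPKM in HuD KOs, against 29.3, 32.7 and 33.0 FPKM in controls, and HuD KO replicate 2 was again the highest library. Its genotypes did not overlap, beside 10.1% of all genes over 6 libraries.

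Of the kinases and the cyclin reported to set the phosphorylation of CELF1 in human or mouse cells, 6 of 6 were listed and 0 passed in limma over 5 or 6 libraries or had an unadjusted p under 0.05. *Akt1*, with the smallest unadjusted p of these genes, was at 31.7, 43.8 and 34.2 FPKM in HuD KOs, against 30.2, 30.4 and 26.2 FPKM in controls. Its genotypes did not overlap, beside 10.1% of all genes over 6 libraries, and its log2 fold change was 0.19 (95% interval -0.05 to 0.42). The protein kinase C gene *Prkcb* had 0.18 (-0.11 to 0.48), and the cyclin gene *Ccnd3* had -0.35 (-0.89 to 0.19). Over 6 libraries these were 0.32 for *Akt1*, 0.14 for *Prkcb* and -0.15 for *Ccnd3*. Without control replicate 3 they were 0.12, 0.09 and -0.55.

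By the deposited coordinates (mm10), *Celf1* lies on chromosome 2 (90940382 to 91019497, + strand) and *Celf2* on the same chromosome at a distance (6539694 to 7509563, - strand). *Celf3* and *Mbnl1* are both on chromosome 3 (94478295 to 94492198 and 60472830 to 60629750, + strand). *Celf4* is on chromosome 18 (25477632 to 25754157, - strand), *Celf5* on chromosome 10 (81459227 to 81482709, - strand), *Celf6* on chromosome 9 (59577917 to 59607292, + strand) and *Mbnl2* on chromosome 14 (120275669 to 120431697, + strand). None shares chromosome 4 with *Elavl4*, and each of these intervals equals that of the gene in GENCODE M21.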

How the data were processed

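Libraries of total RNA from neocortex, made with dUTP in the second strand, were sequenced as paired ends. By the study's methods and processing notes, FastQC 0.11.5 served for read quality, Trimmomatic and Cutadapt for trimming, and STAR 2.7.3a for alignment (mm10). The authors deposited FPKM per gene for each library, by a program not given in the sources used here. A line of sums that names no gene was left out, and columns with the authors' own fold changes, p and q values were not used. The 5 libraries shared by both tables held equal values (within 1e-08). Every gene in the table reaches 0.5 FPKM in the higher of its genotype means. Total FPKM was 216651 to 227439 per library, which is not a depth.

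Values were transformed as log2(FPKM + 1), and the whole table, less genes averaging under 0.5 FPKM, was tested with limma 3.58.1 in R 4.3.3 (lmFit, eBayes with a trend), with genotype as the only term and Benjamini-Hochberg adjustment, called at 0.05. The script was tested on simulated data with known changes. How often a change of a given size was recovered is not given here, so that test does not say what size of change could be missed. The two-sided exact permutation tests, motif counts and figures used Python 3.11.15, NumPy 2.4.6, pandas 2.3.3, SciPy 1.17.1 and matplotlib 3.10.9. Replicates are separate animals. Same-numbered libraries were not treated as pairs. All listed members were named, with the *Elavl4* check, and up to 6 targets, 4 repeat genes and 3 kinase genes by smallest unadjusted p. The members and gene lists were chosen with earlier results of these data known. As alternatives the fit was repeated with HuD KO replicate 2, with the replicate number as a block, without each library in turn, with median or quantile scaling, with a pseudocount of 0.1, without the filter or with one of 2 FPKM, and without the trend in eBayes.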

Additional observations from a re-analysis of the deposited data

How the results depend on the processing

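No member passed in limma under any of the 13 alternatives, none had an unadjusted p under 0.05 and no CELF or MBNL target passed. *Celf1*, *Celf4*, *Celf5* and *Mbnl1* kept their direction under all 13, though *Celf4* came as near to 0 as -0.02. With all 6 libraries the log2 fold change was -0.21 for *Celf2*, -0.10 for *Celf3* and 0.06 for *Dmpk*, each opposite to its sign over 5 libraries. With 1 library left out, those whose sign turned ranged from -0.02 to 0.10 for *Celf2*, -0.06 to 0.08 for *Celf3*, -0.45 to 0.23 for *Celf6*, -0.14 to 0.19 for *Mbnl2*, -0.02 to 0.12 for *Cnbp*, -0.18 to 0.11 for *Dmpk* and -0.11 to 0.07 for *Six5*. The cause was not tested. The correlations of deviations between same-numbered libraries were -0.12, 0.18 and 0.04, with HuD KO replicate 2 included. With 3 libraries per genotype they cannot show whether same-numbered animals were paired, so pairing is unknown. Over 5 libraries replicate 2 has only a control, so the log2 fold changes with the replicate block equal those without control replicate 2. With the replicate block, *Celf2* had -0.02 and *Celf3* -0.06, and 3 genes passed over the whole table. That count was 6 over 5 libraries, 2 with a pseudocount of 0.1, and 2 to 11 with 1 library left out (2 without HuD KO replicate 1 or control replicate 1, 11 without control replicate 3). *Dmpk*, *Six5* and *Ccnd3* have no value at a mean of at least 2 FPKM. Depth is unknown, so what it limits cannot be given.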
